A study of Mus musculus with 20 samples.

Results

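The genes described here carry a cell through DNA replication and division. The list named 42 of them: regulators of entry into S phase, the proteins that license and fire replication origins, enzymes of DNA and nucleotide synthesis, and the cyclins, kinases, kinetochore proteins and motors of mitosis and cytokinesis. Each gene was represented by the probe set annotated to its symbol, or a synonym, alone. Where a gene had more than 1 such probe set, the one with the highest mean over all 20 arrays was taken. By this rule 41 of the 42 genes were measured, out of 19937 genes in all. Ccnb1, which encodes cyclin B1, had no probe set annotated to it alone and was left out.

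The samples came from brains of C57/Bl6 mice that had all been sensitised with lipopolysaccharide (LPS) and subjected to hypoxia-ischaemia (HI), which injured the left hemisphere and left the right uninjured. LPS is a bacterial cell wall component that triggers innate immune signalling, and HI combines reduced blood flow with low oxygen. A set of 5 animals received no peptide and another 5 received IDR1018, a synthetic innate defence regulator peptide. The left and right hemispheres of each animal were arrayed separately, giving 4 groups of 5 arrays: injured left without peptide, uninjured right without peptide, injured left with IDR1018 and uninjured right with IDR1018. The dose, route and timing of the peptide, the interval after injury, the sex and the exact age were not stated in the labels. No group was free of LPS and HI, so the right hemisphere was the only comparison for injury, and it had met the same LPS and oxygen deprivation. The arrays of left hemispheres were numbered 1 to 10 and those of right hemispheres 11 to 20, so any effect of array order cannot be told apart from that of side. The RNA was extracted from whole hemispheres, in which fewer cells of a type and less RNA per cell cannot be told apart.

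In a cycling cell, D-type cyclins act with CDK4 and CDK6, and E-type cyclins with CDK2, to free E2F transcription factors from the retinoblastoma pocket proteins. E2F then drives the genes for origin licensing and DNA synthesis, and a later wave of transcription, in which B-Myb and FoxM1 act at CHR elements with NF-Y at CCAAT boxes, drives the genes of mitosis. Most neurons and many glia of the adult brain are outside the cycle, while progenitors of the subventricular zone and hippocampus, oligodendrocyte precursors, activated microglia, astrocytes and endothelial cells can enter it. More cells divide in the immature brain, and without the exact age this adult picture may not describe these samples.

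Promoter sequences showed how the early and the late genes differ in the elements they carry. RefSeq (build GRCm38.p6) promoter windows, running from 250 bases before the annotated start to 50 after it, were matched to 33 of the 41 measured genes. Ccna2, Foxm1, Ccne2, Aurkb, Kif20a, Tpx2, Mcm4 and Ccnd1 had no entry. On either strand, the windows were searched for the CHR (TTTGAA), for E2F elements (TTTGGCGC, TTTCGCGC, TTTCCCGC or GGCGGGAA) and for the NF-Y box (CCAAT), with overlapping matches kept. The CHR letters were found in 15 of 21 genes of mitosis, spindle and cytokinesis and in 1 of 12 G1/S and replication genes, against 20.2% of all 27025 genes with a window. The E2F letters were found in 6 of the 12 G1/S and replication genes and in 1 of the 21 mitotic genes, against 4% of all genes. The NF-Y box was found in 16 of the 21 and in 8 of the 12, against 41.1% of all genes. A match of letters is a description of the window and does not show that a factor bound there.

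The 6 windows printed here stand for the 2 waves: the helicase genes Mcm2, Mcm6 and Mcm7 for the early one, and Cdk1, Mki67 and Top2a for the late one. All 6 genes lie on the minus strand and each sequence is written 5′ to 3′ along the gene, with matched elements in capitals. The windows are at chr6:88898731-88899030 for Mcm2, chr1:128359656-128359955 for Mcm6, chr5:138171834-138172133 for Mcm7 (one of 2 annotated starts), chr10:69352863-69353162 for Cdk1, chr7:135716330-135716629 for Mki67 and chr11:99024140-99024439 for Top2a.
Mcm2: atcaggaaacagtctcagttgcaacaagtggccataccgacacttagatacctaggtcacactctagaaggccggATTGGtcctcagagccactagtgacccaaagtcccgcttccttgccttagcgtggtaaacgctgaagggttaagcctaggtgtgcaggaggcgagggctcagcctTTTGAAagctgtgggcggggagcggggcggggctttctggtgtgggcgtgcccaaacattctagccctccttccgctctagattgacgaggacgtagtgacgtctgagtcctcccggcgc
Mcm6: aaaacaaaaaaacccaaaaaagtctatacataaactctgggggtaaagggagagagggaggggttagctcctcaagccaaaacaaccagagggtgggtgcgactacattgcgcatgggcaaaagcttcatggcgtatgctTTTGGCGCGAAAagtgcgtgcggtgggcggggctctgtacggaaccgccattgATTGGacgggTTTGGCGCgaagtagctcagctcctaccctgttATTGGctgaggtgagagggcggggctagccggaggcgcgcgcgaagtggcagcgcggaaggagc
Mcm7: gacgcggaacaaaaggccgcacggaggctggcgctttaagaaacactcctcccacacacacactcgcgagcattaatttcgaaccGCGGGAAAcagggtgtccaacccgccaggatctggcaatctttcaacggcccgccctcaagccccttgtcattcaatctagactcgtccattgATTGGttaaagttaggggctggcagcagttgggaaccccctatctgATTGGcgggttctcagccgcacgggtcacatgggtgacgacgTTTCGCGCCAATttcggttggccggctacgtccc
Cdk1: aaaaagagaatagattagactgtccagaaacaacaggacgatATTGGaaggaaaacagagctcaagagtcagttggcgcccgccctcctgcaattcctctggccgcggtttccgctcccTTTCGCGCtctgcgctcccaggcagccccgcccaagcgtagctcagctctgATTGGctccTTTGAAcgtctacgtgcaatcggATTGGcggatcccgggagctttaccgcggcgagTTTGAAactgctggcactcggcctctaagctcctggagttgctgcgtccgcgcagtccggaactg
Mki67: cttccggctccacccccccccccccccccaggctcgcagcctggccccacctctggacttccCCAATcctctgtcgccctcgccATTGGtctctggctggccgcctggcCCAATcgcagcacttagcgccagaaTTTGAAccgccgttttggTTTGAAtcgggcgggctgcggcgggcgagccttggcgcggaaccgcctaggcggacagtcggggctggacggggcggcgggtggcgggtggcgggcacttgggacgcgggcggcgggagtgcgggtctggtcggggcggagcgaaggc
Top2a: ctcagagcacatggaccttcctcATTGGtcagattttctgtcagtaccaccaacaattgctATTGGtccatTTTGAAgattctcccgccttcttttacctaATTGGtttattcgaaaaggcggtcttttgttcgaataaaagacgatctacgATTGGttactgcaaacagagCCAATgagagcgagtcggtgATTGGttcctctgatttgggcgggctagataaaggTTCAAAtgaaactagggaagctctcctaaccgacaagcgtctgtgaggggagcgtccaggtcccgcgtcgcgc
In Mcm6 the E2F letters began 110, 106 and 47 bases before the start, the first pair overlapping on opposite strands. The Mcm7 window had an E2F match 165 bases before the start and another after it that overlapped an NF-Y box. The window of the other Mcm7 start held no E2F match and 1 NF-Y box, and a gene was counted above if any of its windows matched. Mcm2 held no E2F match and was the only one of the 12 early genes with a CHR, 70 bases before the start. Among the late genes, Mki67 held CHR letters 116 and 98 bases before the start, Cdk1 71 and 15 bases before it, and Top2a 179 and 23 bases before it. Cdk1 was the single mitotic gene that also carried an E2F match, 131 bases before the start.

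The first comparison asked how the injured left hemisphere differed from the uninjured right in animals that received no peptide. Cyclins of S phase entry and part of the MCM helicase were called higher on the injured side, by 1.11-fold to 1.18-fold. The cyclin calls, those of Ccnd1, Ccne1 and Ccne2, were lost with the animal as a block. Mki67 and Top2a, general markers of dividing cells, did not pass the test. Of the 41 genes, 6 rose (Ccnd1, Ccne1, Ccne2, Mcm2, Mcm4 and Mcm7) and 1 fell (Aurkb) at an adjusted p under 0.05 in limma, a moderated linear model fitted to all 28187 tested probe sets. Over all 19937 genes, 10.5% were called higher and 10.1% lower, so 6 of 41 is near the background share. Their median log2 difference was 0.01, against −0.01 for all genes, and 23 of the 41 differences were positive, against 44.3% of all genes. At an unadjusted p under 0.05 there were 12 cell cycle genes and 34.1% of all genes. With the 2 hemispheres of each animal kept as a block, 3 genes were called higher (Mcm2, Mcm4 and Mcm7) and Aurkb stayed lower. The median level of the control probe sets was 6.70 to 6.86 on left arrays and 6.74 to 7.01 on right arrays, and with it as a covariate 1 gene was higher, Mcm2, and Aurkb was lower (adjusted p = 0.0436). Without left replicate 4 there were 3 genes higher, and without both arrays of replicate 2, 3, 4 or 5 there were 1, 3, 2 and 0.

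**Figure D1:**
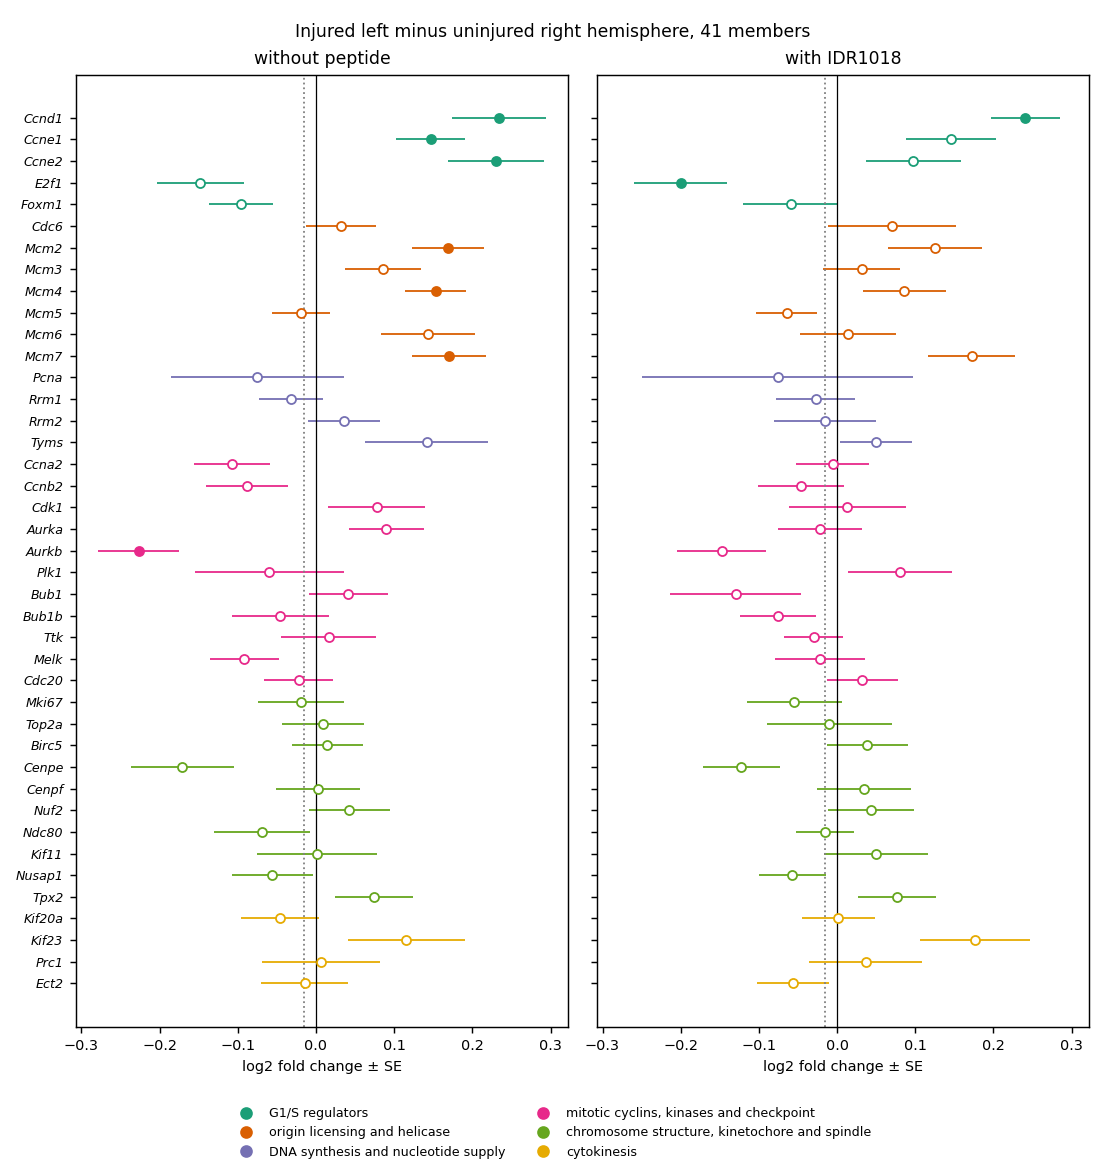
Log2 difference of the injured left over the uninjured right hemisphere for each of the 41 genes, grouped by role, without peptide and with IDR1018; points are limma estimates, bars are their standard errors, filled points passed an adjusted p under 0.05 and the dotted line is the median of all genes. Filled points lie to the right for Ccnd1, Ccne1, Ccne2, Mcm2, Mcm4 and Mcm7 and to the left for Aurkb without peptide, and with IDR1018 for Ccnd1 on the right and E2f1 on the left.

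Among the 5 regulators of S phase entry, 3 rose, with a median log2 difference of 0.15, where 10.5% of all genes were called higher and 10.1% lower. The role groups were drawn up with earlier results of these data known. Their shares, here and below, are therefore descriptions and were not tested. Ccnd1 encodes cyclin D1, the cyclin that couples growth signals to CDK4 and CDK6. Its log2 level was 10.59, 10.57, 10.63, 10.52 and 10.70 on the 5 left arrays, in the order of replicates 1 to 5, and 10.46, 10.48, 10.23, 10.44 and 10.22 on the right arrays. Every left array lay above every right array, with means of 10.60 ± 0.07 (SD, n = 5) and 10.37 ± 0.13. The difference was 0.23 ± 0.06 (SE), a 1.18-fold higher level (limma adjusted p = 0.0191, or 0.0544 with the animal as a block), and the left hemisphere was higher in 5 of 5 animals. Within animals the difference ran from 0.08 in replicate 4 to 0.48 in replicate 5. Without both arrays of replicate 3 or of replicate 5 the call was lost.

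Ccne2, which encodes cyclin E2, a partner of CDK2 at the start of S phase, had left levels of 8.16, 8.29, 7.98, 8.26 and 8.07 and right levels of 8.01, 7.83, 7.98, 7.85 and 7.93. The groups overlapped, since left replicate 3 (7.98) was below right replicate 1 (8.01). The difference was 0.23 ± 0.06 (adjusted p = 0.0228 by limma, 0.0598 with the animal as a block). Ccne1, which encodes cyclin E1, was at 9.57, 9.61, 9.68, 9.77 and 9.72 on the left and 9.59, 9.49, 9.50, 9.54 and 9.50 on the right, and the left was higher in 4 of 5 animals. Its difference of 0.15 ± 0.04 had a limma adjusted p of 0.0384, and of 0.0682 with the animal as a block. The Ccne1 call was lost in 14 of 22 alternatives, among them each that left out left replicate 3, 4 or 5 or right replicate 2, 3, 4 or 5. The Ccne2 call was lost in 8 of 22, among them those without left replicate 4 or right replicate 2 or 4.

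E2f1, the transcription factor those cyclins release, lay on the other side. Its left levels were 9.34, 9.17, 9.36, 9.13 and 9.37 and its right levels 9.54, 9.37, 9.40, 9.38 and 9.41, so every left array was below every right array. The difference of −0.15 ± 0.06 had an adjusted p of 0.0905 in limma and did not pass. Foxm1, the forkhead factor of the mitotic wave, differed by −0.10 ± 0.04 (adjusted p = 0.135 in limma).

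Of the 7 genes of origin licensing and the replicative helicase, 3 rose, against 10.5% of all genes. Positive differences were found in 6, against 44.3% of all genes, with a median of 0.14. The MCM2 to MCM7 proteins form the ring that is loaded at origins and unwinds DNA ahead of the fork. Mcm2 levels were 9.12, 9.14, 9.21, 9.16 and 9.17 on the left arrays and 8.94, 8.86, 9.05, 9.08 and 9.03 on the right arrays. Mcm4 levels were 8.72, 8.70, 8.65, 8.81 and 8.75 on the left and 8.64, 8.55, 8.59, 8.54 and 8.55 on the right. Mcm7 levels were 9.32, 9.36, 9.19, 9.34 and 9.21 on the left and 9.15, 9.14, 9.08, 9.19 and 9.01 on the right. In all 3 genes every left array lay above every right array and the left was higher in 5 of 5 animals, but the margins were narrow. The lowest left and highest right values were 8.65 and 8.64 for Mcm4, and for Mcm7 both rounded to 9.19. The differences were 0.17 ± 0.05 for Mcm2 (limma adjusted p = 0.0238), 0.15 ± 0.04 for Mcm4 (0.0186) and 0.17 ± 0.05 for Mcm7 (0.0269). With the animal as a block these adjusted p-values were 0.0277, 0.0461 and 0.0176. Leaving out a single array ended the Mcm2 call for left replicate 3 and right replicate 1, and the Mcm7 call for left replicates 1, 2 and 4 and right replicates 3 and 5. The Mcm4 call was kept without any single array, and was lost without both arrays of replicate 2, 4 or 5.

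Mcm6, a further subunit of the ring and the one whose window held 3 E2F matches, was at 8.92, 8.90, 8.99, 9.04 and 8.81 on the left and 8.76, 8.61, 8.91, 8.85 and 8.81 on the right. Its difference of 0.14 ± 0.06 was close in size to those of its partners, but the arrays overlapped and the adjusted p was 0.123 in limma. Mcm3 differed by 0.09 ± 0.05 and Mcm5 by −0.02 ± 0.04, and neither passed. Cdc6, the loader that brings the ring to the origin, differed by 0.03 ± 0.04 and was below the control median on 1 of the 20 arrays. Whether the subunits of the ring differ from one another was not tested.

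**Figure D2:**
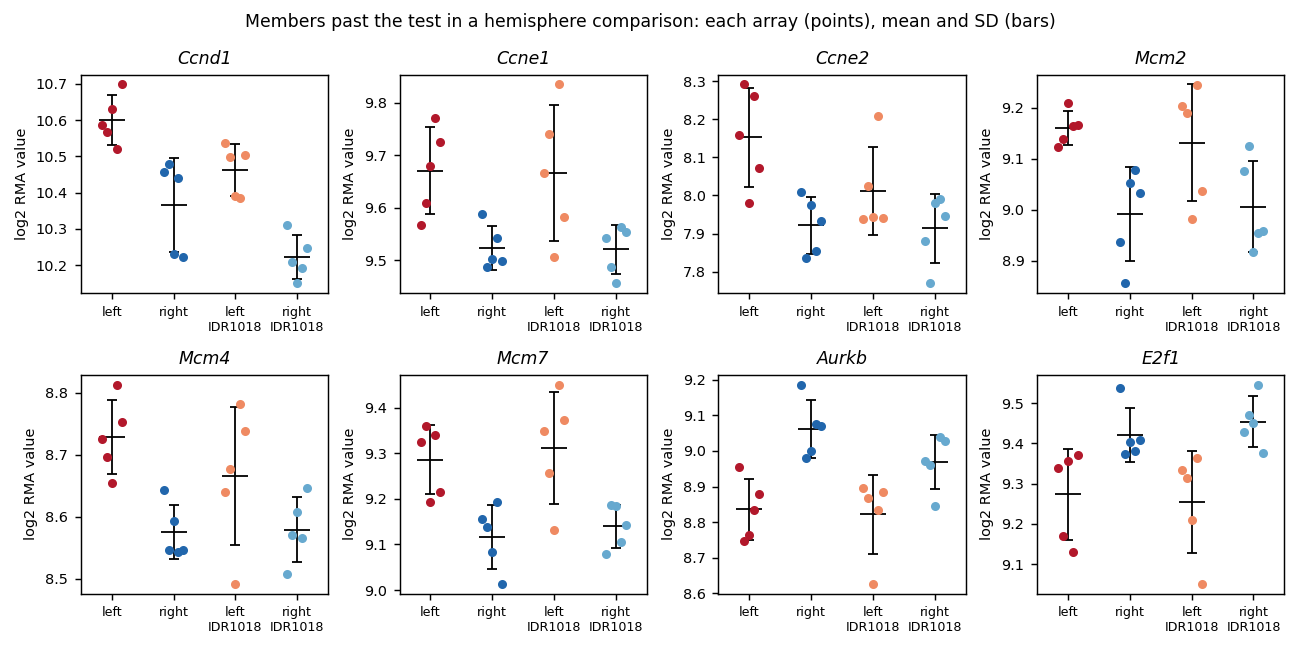
Log2 RMA level on each of the 20 arrays for the 8 genes that passed the test in a left-right comparison, with a separate vertical scale for each gene; points are arrays and bars are the group mean and SD (n = 5). Without peptide the left arrays of Ccnd1, Mcm2, Mcm4 and Mcm7 all lie above the right arrays and those of Aurkb and E2f1 all lie below, and with IDR1018 only Ccnd1 and E2f1 separate.

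None of the 4 genes of DNA synthesis and nucleotide supply passed. Pcna, the sliding clamp that holds polymerases on DNA, was at 11.17, 10.99, 11.58, 11.27 and 11.17 on the left and 11.34, 10.97, 11.40, 11.44 and 11.40 on the right, a difference of −0.07 ± 0.11 (adjusted p = 0.700 in limma). Pcna has 2 pseudogenes in RefSeq, so its signal is uncertain, and a second probe set for Pcna (mean level 10.94) differed by 0.12 ± 0.05 in the other direction (adjusted p = 0.128 in limma). Tyms, thymidylate synthase, differed by 0.14 ± 0.08, and the ribonucleotide reductase subunits Rrm1 and Rrm2 by −0.03 ± 0.04 and 0.04 ± 0.05.

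Among the 25 genes of mitosis, spindle and cytokinesis 1 fell and none rose, against 10.1% and 10.5% of all genes. That gene was Aurkb, the kinase of the chromosomal passenger complex, which corrects microtubule attachments and guides cytokinesis. Its left levels were 8.95, 8.75, 8.76, 8.83 and 8.88 and its right levels 9.19, 8.98, 9.00, 9.08 and 9.07, with every left array below every right array. The difference was −0.23 ± 0.05, a 1.17-fold lower level (limma adjusted p = 0.0106, or 0.00526 with the animal as a block). Within animals it ran from −0.24 to −0.19. The call was lost in 1 of 22 alternatives, without both arrays of replicate 4 (adjusted p = 0.054 in limma). Birc5, which encodes the passenger complex subunit survivin, differed by 0.01 ± 0.05 and did not pass.

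The proliferation markers stayed within the replicate spread. Mki67, the gene of the Ki-67 antigen of cycling cells, was at 9.00, 8.86, 8.81, 9.02 and 8.94 on the left and 9.06, 8.96, 8.82, 8.99 and 8.90 on the right. The difference was −0.02 ± 0.05 with a 95% interval from −0.14 to 0.10. Top2a, the topoisomerase that untangles chromosomes before they separate, was at 8.47, 8.43, 8.30, 8.48 and 8.40 on the left and 8.41, 8.41, 8.27, 8.54 and 8.41 on the right, a difference of 0.01 ± 0.05 (−0.00 with median-centred arrays) with an interval from −0.10 to 0.12. Cdk1, the kinase that drives entry into mitosis, was at 9.45, 9.31, 9.49, 9.33 and 9.29 on the left and 9.44, 9.11, 9.35, 9.31 and 9.27 on the right. Its difference was 0.08 ± 0.06, with an interval from −0.06 to 0.21. For these 3 genes the left and right arrays overlapped. A second, dim probe set of Top2a, below the control median on all 20 arrays, differed by −0.09 ± 0.08.

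The other mitotic cyclins, kinases and checkpoint genes ranged from −0.11 ± 0.05 for Ccna2 (cyclin A2) to 0.09 ± 0.05 for Aurka, the centrosomal Aurora kinase, with Ccnb2, Plk1, Bub1, Bub1b, Ttk, Melk and Cdc20 between them. Ttk, a spindle checkpoint kinase, was below the control median on 16 of 20 arrays. The 10 genes of chromosome structure, kinetochore and spindle had a median difference of 0.00, with Cenpe, a kinetochore motor, lowest at −0.17 ± 0.07 (adjusted p = 0.0947 in limma) and Tpx2, a spindle assembly factor, highest at 0.07 ± 0.05. The 4 cytokinesis genes ranged from −0.05 ± 0.05 for Kif20a to 0.12 ± 0.08 for Kif23, both motors of the central spindle. The left and right arrays did not overlap in 4 of the 41 genes in the higher direction (8.59% of all genes) and in 2 in the lower direction, Aurkb and E2f1 (9.11% of all genes).

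The second comparison put the same question to the animals given IDR1018. Cyclin D1 was again higher and E2f1 lower on the injured side, and the cyclin E and MCM genes did not pass. Of the 41 genes 1 rose and 1 fell, against 9.12% of all genes called higher and 7.96% called lower. The median difference was 0.00, against −0.02 for all genes, and 21 of 41 were positive, against 44% of all genes. At an unadjusted p under 0.05 there were 7 of the 41 genes and 31.4% of all genes. Without left replicate 3, 4 of the 41 were higher (Ccnd1, Ccne1, Mcm7 and Kif23) and none was lower.

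Ccnd1 levels with IDR1018 were 10.54, 10.50, 10.39, 10.38 and 10.50 on the left and 10.31, 10.21, 10.15, 10.19 and 10.25 on the right. Every left array was above every right array, and within animals the difference ran from 0.19 to 0.29. The difference of 0.24 ± 0.04, 1.18-fold, had an adjusted p of 0.00361 in limma and was kept in all 22 alternatives, with adjusted p-values from 0.000824 to 0.0289. E2f1 was at 9.34, 9.31, 9.21, 9.36 and 9.05 on the left and 9.43, 9.47, 9.45, 9.55 and 9.38 on the right, with no overlap. It fell by 0.20 on the log2 scale (SE 0.06, adjusted p = 0.0402 in limma), and this call was lost in 12 of 22 alternatives, including those without left replicate 2, 3 or 5 or right replicate 1, 2, 3 or 4. These were the only genes of the 41 whose left and right arrays did not overlap, 1 in each direction, against 8.53% and 7.56% of all genes.

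Mcm7 levels were 9.35, 9.26, 9.13, 9.45 and 9.37 on the left and 9.08, 9.19, 9.18, 9.11 and 9.14 on the right, and left replicate 3 (9.13) lay among the right arrays. The difference was 0.17 ± 0.06 (adjusted p = 0.0571 in limma). It passed with dim probe sets left out (0.0358), with an intensity trend and robust prior (0.0371) and with all 4 groups in the fit (0.0264). Mcm2 differed by 0.13 ± 0.06 (adjusted p = 0.193 in limma), Mcm4 by 0.09 ± 0.05 (0.318) and Mcm6 by 0.01 ± 0.06 (0.908), and 6 of the 7 licensing and helicase genes had positive differences, with a median of 0.07.

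Ccne1 differed by 0.15 ± 0.06 (adjusted p = 0.115 in limma) and Ccne2 by 0.10 ± 0.06 (0.324). Aurkb levels were 8.90, 8.87, 8.63, 8.83 and 8.88 on the left and 8.97, 8.96, 8.85, 9.04 and 9.03 on the right, lower on the left in 5 of 5 animals. Its difference of −0.15 ± 0.06 had an adjusted p of 0.107 in limma, and of 0.0479 with the animal as a block. Mki67 differed by −0.05 ± 0.06, with a 95% interval from −0.19 to 0.08, and Top2a by −0.01 ± 0.08, with an interval from −0.18 to 0.16. Cdk1 differed by 0.01 ± 0.07, from −0.15 to 0.18, and Cenpe by −0.12 ± 0.05 (adjusted p = 0.121 in limma). Pcna differed by −0.08 ± 0.17, and left replicate 1 (10.39) was far below the other left arrays (11.16 to 11.38).

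The wider cell cycle machinery gave context for these genes, from 4 further gene lists. Several genes that restrain the cycle or answer stress and growth signals differed between hemispheres by more than any of the 41. Without peptide, 6 of 16 measured CDK inhibitor, pocket protein and growth arrest genes rose and 1 fell (median 0.14), where 10.5% of all genes were called higher and 10.1% lower. Gadd45b, a stress sensor of the growth arrest and DNA damage family, was 10.28 ± 0.33 on the left and 8.57 ± 0.08 on the right (SD, n = 5), a difference of 1.72 ± 0.13 (limma adjusted p = 1.4e-05). Gadd45g differed by 1.36 ± 0.17 and Gadd45a by 0.39 ± 0.07. The pocket protein gene Rbl2 fell, by 0.15 on the log2 scale. Cdkn1a, which encodes p21, was not measured by a probe set of its own.

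Of 18 G1 cyclin, CDK and E2F genes, which included the immediate early genes Jun and Junb, 4 rose and none fell without peptide. Cdk6, a catalytic partner of cyclin D1, was 10.02 ± 0.11 on the left and 9.27 ± 0.07 on the right, a difference of 0.75 ± 0.06 (limma adjusted p = 1.4e-05). Cdc25a, the phosphatase that activates CDK2, differed by 0.37 ± 0.05, Jun by 0.74 ± 0.16 and Junb by 0.53 ± 0.12. Of 31 measured genes of origin recognition and the replication fork, 5 rose, including Orc2 (0.27 ± 0.05) and Orc4 (0.26 ± 0.05), subunits of the origin recognition complex, and Rfc3 (0.24 ± 0.07), a subunit of the clamp loader. In that list 2 fell: Cdc7, the kinase that activates the MCM ring (−0.38 ± 0.07), and Pole, the leading strand polymerase (−0.28 ± 0.04). Of 33 further mitosis genes 3 rose (Fbxo5, Cenpa and Spc25, by 0.21 to 0.30) and 2 fell (Ncaph and Kif22), with a median of −0.01. Against the same 10.5% and 10.1% of all genes, the counts of the mitosis list were near or below the background.

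With IDR1018, the same lists gave 4 higher and none lower of 16 CDK inhibitor and growth arrest genes, 5 higher and 1 lower of 18 G1 genes, 4 higher and 2 lower of 31 origin and fork genes, and 3 higher and none lower of 33 mitosis genes. Over all genes 9.12% were called higher and 7.96% lower, and the 3 of 33 and 4 of 31 higher are near that share. Gadd45b differed by 1.56 ± 0.10, Gadd45g by 0.87 ± 0.12, Gadd45a by 0.35 ± 0.06, Cdk6 by 0.67 ± 0.06, Jun by 0.59 ± 0.09 and Cdc25a by 0.35 ± 0.06, all past the test. Among origin and fork genes Orc4 rose by 0.32 ± 0.06, Orc2 by 0.26 ± 0.04 and Dbf4, the partner of the Cdc7 kinase, by 0.21 ± 0.06, while the differences of Cdc7 (−0.32 ± 0.08) and Pole (−0.36 ± 0.06) passed in the lower direction. The mitosis genes that rose were Kif18a (0.31 ± 0.08), Spc25 (0.23 ± 0.06) and Cenpa (0.22 ± 0.06). E2f8, a repressor of the E2F family, fell by 0.19 on the log2 scale.

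**Figure D3:**
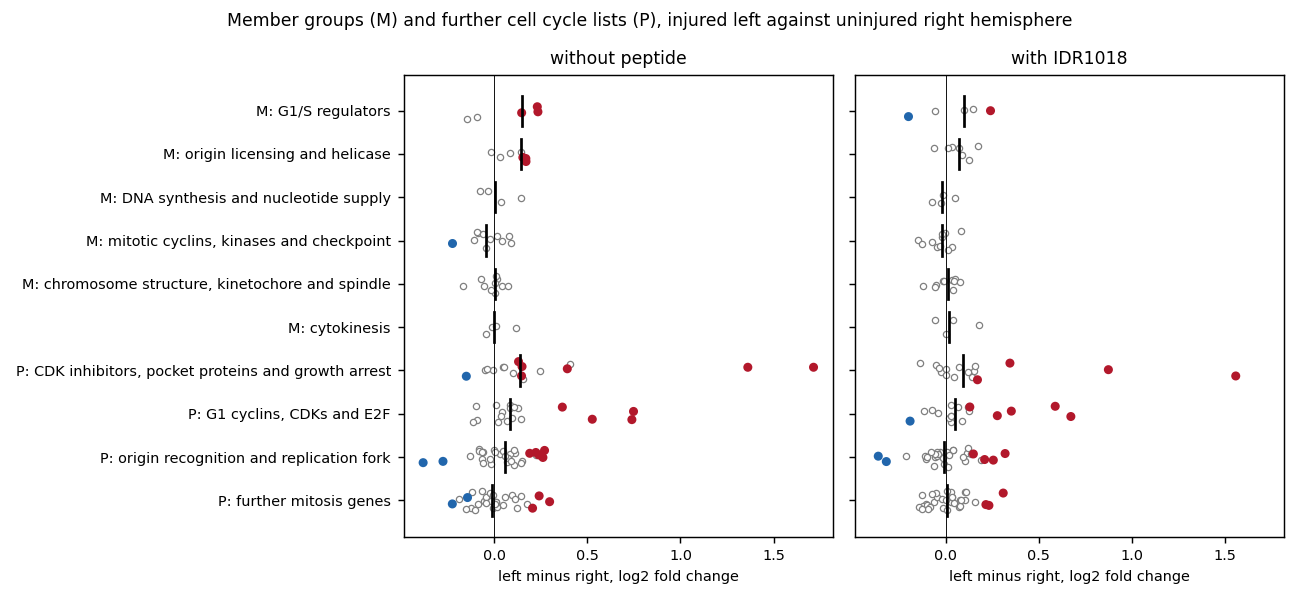
Log2 difference of the injured left over the uninjured right hemisphere for every measured gene of the 6 role groups of the 41 genes (M) and of the 4 further cell cycle lists (P), without peptide and with IDR1018; each point is a gene, red where it was called higher, blue where lower and open where it did not pass, and vertical bars are medians. Gadd45b and Gadd45g lie farthest to the right in both panels, and the mitotic groups centre near 0.

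Some markers of cells that can enter the cycle differed between the hemispheres, and their part in the left-right differences of the cyclin and MCM genes was not tested. Without peptide, where 10.5% of all genes were called higher and 10.1% lower, 2 of 11 neural progenitor markers rose (Nes and Sox11) and 1 fell (Hes5), 1 of 7 endothelial markers rose (Pecam1) and 1 of 7 astrocyte markers rose (Gfap, by 0.32 ± 0.05), counts of 1 or 2 genes that are near the background. Of 8 microglia and macrophage markers 3 rose (Cd68, Ptprc and Itgam) and 3 fell (P2ry12, Tmem119 and Csf1r), and of 7 oligodendrocyte precursor markers 2 fell (Pdgfra and Cspg4). The mean log2 level of the precursor list was 9.64 to 9.87 on left arrays and 9.84 to 9.95 on right arrays. That of the microglia list was 8.90 to 8.96 on the left and 8.86 to 9.03 on the right, that of the progenitor list 9.70 to 9.80 and 9.66 to 9.79, that of the endothelial list 9.55 to 9.85 and 9.47 to 9.69, and that of the astrocyte list 11.4 to 11.5 on both sides. Of 8 neuronal markers, which check the labelled tissue, 2 fell and all were negative, with mean levels of 12.69 to 12.73 on the left and 12.80 to 12.85 on the right. In the lymphocyte and red cell list, Cd3g, Cd79a and Ms4a1 were below the control median on all arrays, Cd3e was above it on all arrays, with group means of 7.65 to 7.72, and Alas2, a red cell gene, rose by 0.45 ± 0.09. Of 6 markers of cerebellar granule precursors 1 fell (Neurod1).

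With IDR1018, where 9.12% of all genes were called higher and 7.96% lower, 3 of 7 oligodendrocyte precursor markers fell (Pdgfra, Cspg4 and Olig1), 2 of 8 microglia and macrophage markers rose (Cd68 and Ptprc) and 2 fell (P2ry12 and Tmem119). Of 7 astrocyte markers 2 rose (Gfap and Aldh1l1), of 11 progenitor markers 1 rose (Nes) and 1 fell (Hes5), and of 7 endothelial markers 1 rose (Pecam1). Of 8 neuronal markers 2 fell (Tubb3 and Camk2a), Alas2 rose and Neurod1 fell. The mean level of the precursor list was 9.76 to 9.85 on the left and 9.86 to 9.95 on the right, and that of the microglia list 8.85 to 9.01 and 8.83 to 8.96. Their part in the differences of Ccnd1 and E2f1 was not tested.

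The next 2 comparisons asked what IDR1018 changed in each hemisphere. None of the 41 genes passed in limma in the left hemisphere or in the right, and in both hemispheres 0% of the 19937 genes were called in either direction. In the left hemisphere 4 of the 41 genes and 4.09% of all genes had an unadjusted p under 0.05, and in the right 2 of the 41 and 3.79% of all genes. These counts depended on single arrays. On the left 2 of the 41 were left without peptide replicate 3 and 1 without replicate 1 of the animals given no peptide. On the right the count was 13 (6.03% of all genes) without replicate 3 of the animals given no peptide, 5 without their replicate 2, 1 without their replicate 1 or 4 or without peptide replicate 2, and 8 (4.35% of all genes) with the control level as a covariate. No list of the wider machinery held a gene that passed. In none of the 41 did the 5 peptide arrays lie wholly above or below the 5 without peptide, which happened for 0.296% of all genes above and 0.281% below in the left hemisphere, and for 0.271% above and 0.246% below in the right.

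**Figure D4:**
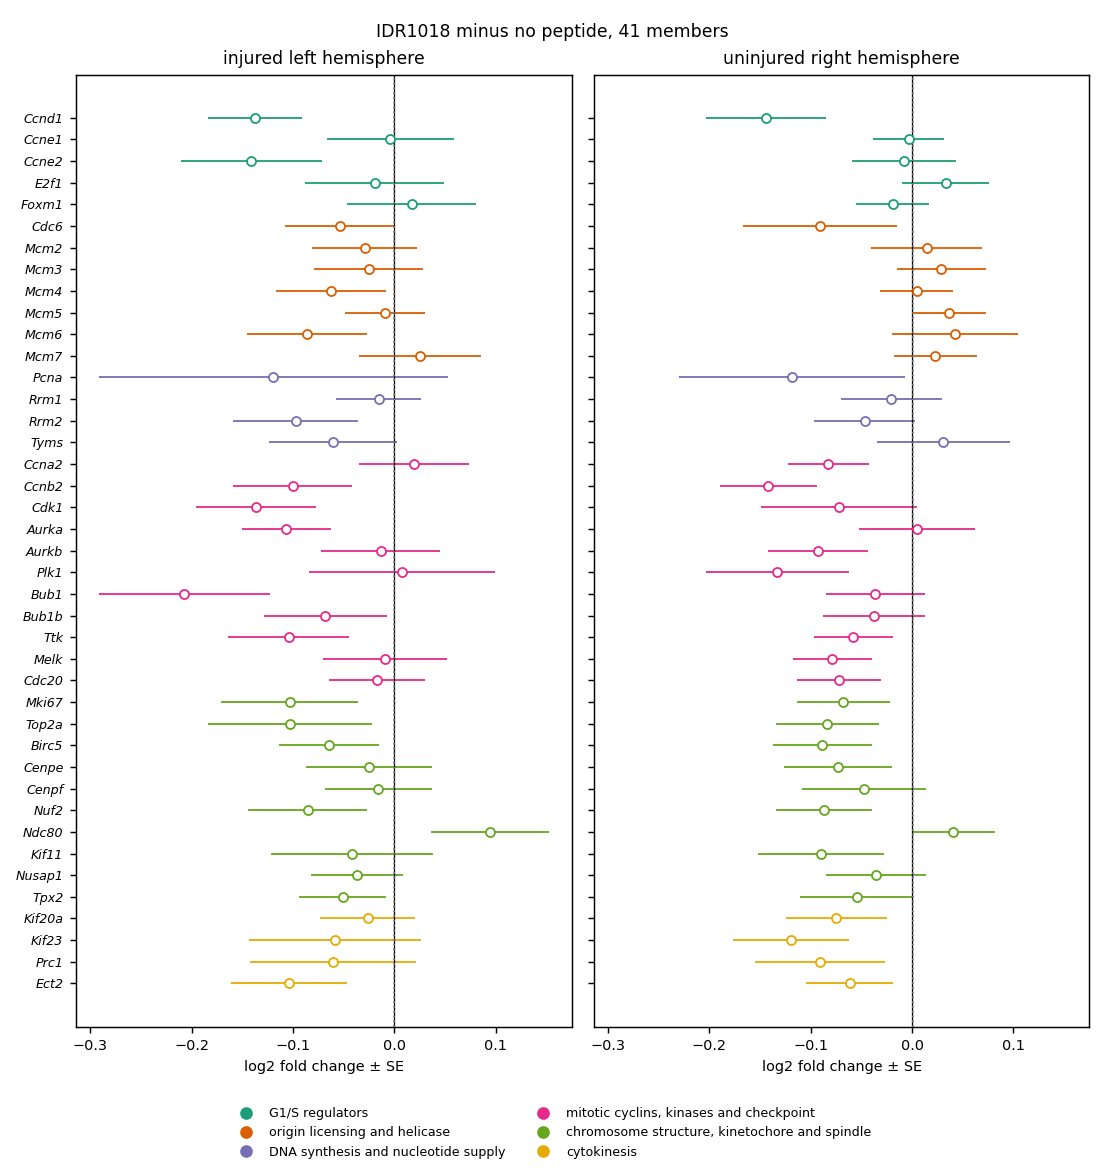
Log2 difference of IDR1018 over no peptide for each of the 41 genes in the injured left and uninjured right hemisphere; points are limma estimates, bars are their standard errors, open points did not pass and the dotted line is the median of all genes. No point is filled, and most lie a little left of 0.

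Most differences were slightly negative. In the left hemisphere 36 of 41 were negative, with a median of −0.05, where 50% of all genes were positive. All 7 endothelial markers had negative differences too (median −0.12, none passed), their mean level being 9.46 to 9.65 with peptide and 9.55 to 9.85 without, and 8 of 11 progenitor markers were negative. Positive differences were found in 4 of 7 oligodendrocyte precursor, 6 of 8 microglia and macrophage, 6 of 7 astrocyte and 8 of 8 neuronal markers, and none passed. In the right hemisphere 5 of 7 endothelial (median −0.04), 5 of 11 progenitor and 5 of 7 oligodendrocyte precursor markers were negative. So were 7 of 8 microglia and macrophage, 2 of 7 astrocyte and 3 of 8 neuronal markers, and none passed. The part of these cell types in the shift of either hemisphere was not tested. Without peptide left replicate 3, 17 of the 41 differences were positive and the median was −0.02, and without left replicate 4 of the animals given no peptide it was −0.04. In the right hemisphere 31 of 41 were negative, with a median of −0.06, which was −0.03 without replicate 1 of the animals given no peptide. By role, 6 of 7 licensing and helicase genes were positive on the right (median 0.02), against 1 of 7 on the left. The right differences were negative in 10 of 11 mitotic cyclin, kinase and checkpoint genes and 9 of 10 spindle and chromosome genes. They were also negative in 4 of 4 cytokinesis, 4 of 5 S phase entry and 3 of 4 DNA synthesis genes. In the wider origin and fork list 21 of 31 were positive on the right and 9 of 31 on the left.

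Ccnd1 had the smallest unadjusted p of the 41 genes in the left hemisphere, at 10.46 ± 0.07 (SD, n = 5) with peptide against 10.60 ± 0.07 without. The difference was −0.14 ± 0.05, with a 95% interval from −0.24 to −0.04 and an adjusted p of 0.999 in limma. In the right hemisphere it was 10.22 ± 0.06 with peptide against 10.37 ± 0.13, a difference of −0.14 ± 0.06 with an interval from −0.27 to −0.02 (adjusted p = 1.0 in limma). Bub1, a spindle checkpoint kinase, was at 7.66, 7.47, 7.10, 7.50 and 7.47 in left hemispheres with peptide and 7.77, 7.60, 7.58, 7.63 and 7.67 without, a difference of −0.21 ± 0.08 with an interval from −0.39 to −0.02. Replicates 2, 3, 4 and 5 with peptide lay below every array without it, replicate 3 the lowest, and replicate 1 lay within their range. Aurka differed by −0.11 ± 0.04 on the left. In the right hemisphere the lowest p-values beside that of Ccnd1 were those of Ccnb2, cyclin B2 (−0.14 ± 0.05), and Kif23 (−0.12 ± 0.06).

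The intervals bound how large a change these arrays could have missed. For Mki67 the peptide difference was −0.10 ± 0.07 on the left, with a 95% interval from −0.25 to 0.04, and −0.07 ± 0.05 on the right, from −0.17 to 0.03. For Top2a it was −0.10 ± 0.08 on the left, from −0.28 to 0.07, and −0.08 ± 0.05 on the right, from −0.19 to 0.03. For Mcm2 it was −0.03 ± 0.05 on the left, from −0.14 to 0.08, and 0.01 ± 0.05 on the right, from −0.10 to 0.13. For Mcm6 it was −0.09 ± 0.06 on the left, from −0.21 to 0.04, and 0.04 ± 0.06 on the right, from −0.09 to 0.18. Cdk1 was also lower in the mean on both sides, with a difference of −0.14 ± 0.06 on the left, from −0.27 to −0.01, and of −0.07 ± 0.08 on the right, from −0.24 to 0.10. The widest intervals among the genes given here were those of Pcna, from −0.50 to 0.26 on the left, where peptide replicate 1 was at 10.39, and from −0.36 to 0.12 on the right. The positive differences with the smallest p-values on the left were those of Ndc80, a kinetochore protein (0.09 ± 0.06), Mcm7 (0.03 ± 0.06) and Ccna2 (0.02 ± 0.05), and on the right those of Ndc80 (0.04 ± 0.04), Mcm5 (0.04 ± 0.04) and E2f1 (0.03 ± 0.04).

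The last comparison tested whether the left-right difference itself changed with the peptide. None of the 41 genes passed this interaction (0% of all genes were called), none had an unadjusted p under 0.05, against 2.53% of all genes, and the median was 0.00. For Ccnd1 the left-right difference with peptide minus that without was 0.01 ± 0.08, with a 95% interval from −0.15 to 0.16. For Ccne2, called without peptide only, it was −0.13 ± 0.09, from −0.32 to 0.05, and for Aurkb 0.08 ± 0.08, from −0.08 to 0.24. For Mcm2 it was −0.04 ± 0.08, for Mcm6 −0.13 ± 0.09, for Mki67 −0.04 ± 0.08, for Top2a −0.02 ± 0.10, for Cdk1 −0.06 ± 0.10 and for Pcna −0.00 ± 0.22. Bub1 was lowest (−0.17 ± 0.10), followed by Ccne2, Mcm6 and Aurka (−0.11 ± 0.07), and Plk1, the polo kinase of mitotic entry, was highest (0.14 ± 0.12), followed by Ccna2 (0.10 ± 0.07). A call in one treatment and not in the other was therefore not shown to be a difference between the treatments.

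Within groups, single arrays were low or high for most mitotic genes at once. In left hemispheres with IDR1018, replicate 3 was the lowest of its 5 arrays for 36 of the 41 genes, including 24 of the 25 genes of mitosis, spindle and cytokinesis, against 23.9% of all genes. These 25 genes lay on average 0.16 below their group means on that array, and the 16 G1/S and replication genes 0.12 below. Prc1, which bundles the microtubules of the central spindle, was at 7.98, 7.89, 7.58, 8.00 and 7.93. Without peptide, replicate 3 was lowest for 17 of the 25 mitotic genes in the left hemisphere (20.7% of all genes) and for 18 of the 25 in the right (23.4% of all genes). Replicate 1 was the highest right array without peptide for 19 of the 25 (24.3% of all genes). The control medians of the peptide left arrays were 6.68 to 6.86, and replicate 3 stood at 6.83. The 25 genes share the array, and the members are not replicates of a condition.

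**Figure D5:**
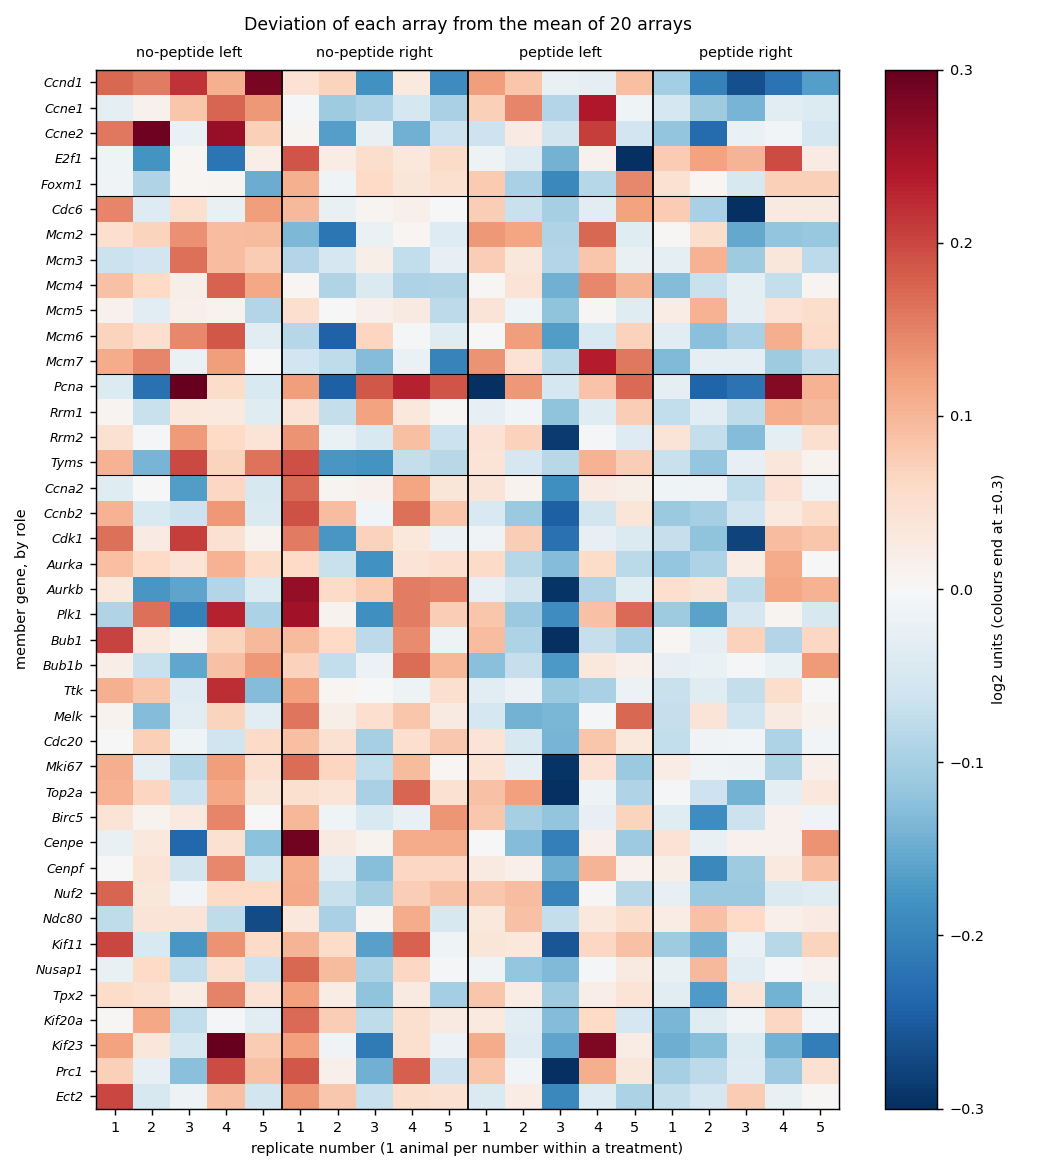
Deviation of each array (columns, by group and replicate) from the gene's mean over all 20 arrays, in log2 units, for the 41 genes (rows, by role), with the colour scale ending at 0.3 in each direction. The column of left replicate 3 with IDR1018 is low for nearly all mitotic genes, and the column of right replicate 1 without peptide is high.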

How the data were processed

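Total RNA from the left and right hemispheres of 10 mice was measured on 20 arrays. The deposited values are log2 expression per probe set that the authors made by RMA in affy 1.38.1, per the submitters' processing notes; the settings and the chip definition are not given in the sources used here. Array medians lay between 8.20 and 8.23, so a shift shared by most genes would not be seen. Of 34760 probe sets, 6573 whose identifiers precede the first annotated one were treated as controls and 28187 were tested. The median level of the controls per array, 6.68 to 7.01, served as a mark of dim signal. Of those tested, 21640 had 1 gene symbol, 1321 had several and 5226 were not listed. By Entrez identifier 21553 matched RefSeq GRCm38.p6, and 19937 genes were represented.

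The 2 groups of each comparison were fitted with limma 3.58.1 in R 4.3.3 (lmFit, eBayes), the interaction with all 4 groups, and p-values were adjusted by Benjamini-Hochberg over all 28187 probe sets, with a threshold of 0.05. Fold changes are estimates with SE, and the number of arrays limits their precision. Tables were made in Python 3.11.15 with pandas 2.3.3. The procedure was tested on simulated arrays with independent noise and planted changes larger than those of the called members. The simulation held no shift shared by the genes of an array and no paired hemispheres, so it does not cover these. Genes named with statistics were those called, in comparisons with fewer than 3 calls also the 3 smallest p-values in each direction, Mki67, Top2a, Ccnd1, Mcm2, Mcm6, Cdk1 and Pcna throughout, and up to 3 called genes per direction of each further list. The other members are given by their value or range. The members, roles and lists were chosen with earlier results of these data known. Hemispheres were paired by the specimen numbers in the labels, each taken to mark 1 animal; the labels do not state this, and p-values measure the spread between these samples. Deviations of an animal's 2 arrays from their group means correlated by 0.036 to 0.254, and the fit with the animal as a block had a consensus correlation of 0.069. In the main fits treated and untreated animals were not paired by replicate number. Alternatives were median-centred arrays, a filter on dim probe sets, an intensity trend with robust prior, all 4 groups in the fit, the mean of a gene's probe sets, the animal block and leaving out arrays or animals. The peptide comparisons also had a block on replicate number and the array number as a covariate. The control level as a covariate and the second Pcna probe set were added after seeing the data.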

Additional observations from a re-analysis of the deposited data

Results flagged for a closer look

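In 164 gene and group combinations (41 genes in 4 groups of 5 arrays), 11 had 1 array whose gap to its nearest neighbour took up an unusually large part of the group's range. Chance alone gives about 1 in 20. Left replicate 3 with IDR1018 was the array in 4 of them. Ccna2 was at 9.02 there against 9.22 on the nearest other array, Aurkb at 8.63 against 8.83, Kif11 at 8.28 against 8.57 and Prc1 at 7.58 against 7.89. Pcna was lowest in left replicate 1 with IDR1018, at 10.39 against 11.16, and in right replicate 2 without peptide, at 10.97 against 11.34. Birc5 and Tpx2 were highest in left replicate 4 without peptide, at 7.63 against 7.53 and 8.35 against 8.25. E2f1 was highest in right replicate 1 without peptide, at 9.54 against 9.41. Cdc20 was lowest in right replicate 3 without peptide, at 8.07 against 8.22, and Bub1b highest in right replicate 5 with IDR1018, at 8.04 against 7.90.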

How the results depend on the processing

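Of 1433 alternative values for the named genes, 1291 kept their direction and their side of the threshold. Most of these belonged to genes that were not called, many of them far from the threshold, so this count says little about the calls. A call was lost in 59 alternatives, with 22 alternatives for each called gene. The cause of the changes was not tested. Without peptide, members called higher went from 6 to 3 with the animal as a block and to 1 with the control level as a covariate, and those called lower from 1 to 2 with all 4 groups in the fit. All genes called went from 4090 to 2418 with that covariate. With IDR1018, members called higher went from 1 to 2 with dim probe sets left out, with the trend and robust prior and with all 4 groups, and those called lower from 1 to 2 with the block and to 0 with the covariate. The block changed no other count by more than 1.5 times. Median centring gave 1739 genes higher and 2404 lower against 2085 and 2005 without peptide, and 1662 and 1800 against 1818 and 1587 with it. Leaving out 1 array or animal gave, without peptide, 0 to 5 members higher, 0 to 1 lower and 2196 to 3893 genes called. The 0 came without both arrays of replicate 5, 1 remained without those of replicate 2, and Aurkb was lost without those of replicate 4. With IDR1018 it gave 1 to 4 higher (4 without left replicate 3), 0 to 1 lower and 1925 to 3064 of 3405 genes. For peptide in the left hemisphere it gave 0 to 1 genes of any kind, and 0 members. Signs turned for genes near 0. Left against right without peptide, Top2a was −0.0045 with median centring and −0.0402 as the mean of its probe sets, and Pcna 0.0233 as that mean, 0.0133 with the covariate and 0.12 by its second probe set. With IDR1018, Top2a was 0.14 by the mean, Pcna 0.0545 by the second probe set, and Mcm6 and Cdk1 were −0.0471 and −0.0639 with the covariate. For the peptide on the left, Top2a was 0.0853 by the mean. For the interaction, Top2a was 0.18 by the mean and 0.0029 with the covariate, and Pcna 0.0057 with median centring and 0.0411 with the covariate. Leaving out arrays turned the sign of Mki67 (−0.0502 to 0.011) and Top2a (−0.0256 to 0.0425) without peptide, and with it of Mki67 (−0.10 to 0.0013), Top2a (−0.0592 to 0.0678), Mcm6 (−0.0447 to 0.056), Cdk1 (−0.0421 to 0.0577) and Pcna (−0.19 to 0.10). It turned the peptide difference on the left for Mcm7 (−0.0093 to 0.0702), Ccna2 (−0.0128 to 0.0611), Mcm2 (−0.0574 to 0.0078) and Pcna (−0.19 to 0.0614), that on the right for Mcm2 (−0.0196 to 0.0364) and Mcm6 (−0.0027 to 0.0744), and the interaction for Mki67 (−0.0822 to 0.0202), Top2a (−0.0686 to 0.0584), Ccnd1 (−0.0324 to 0.067) and Pcna (−0.11 to 0.18). Signal near background limits Ttk and Cdc6, and 5 arrays a group limit all.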
